A study of Mus musculus with 6 samples.

Results

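The TNF superfamily of ligands and receptors was examined at the level of RNA in cultured mouse bone marrow cells. Its members were taken from the probe annotation by symbol: every gene with a Tnfsf or Tnfrsf number, plus Tnf, Lta, Ltb, Ltbr, Fas, Fasl, Cd27, Cd70, Cd40lg, Ngfr and Eda2r. This gave 38 of the 18193 genes with a probe set of their own, namely 13 ligands, 24 receptors and Tnfsf13os. Tnfsf13os matched the pattern by its letters but is annotated as a long non-coding RNA from the strand opposite Tnfsf13. It is neither a ligand nor a receptor, and it is named apart in the counts. Among the receptors, 6 carry a death domain, 3 are decoys that bind a ligand without passing on a signal, and 15 are of neither kind. Each gene was read from its brightest probe set on average, and 16 members had more than 1. A further 3 probe sets listed several genes, among them Tnfsf12 and Tnfsf13, and were not used here.

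RNA was measured on 6 Affymetrix arrays, 2 in each of 3 groups, all from C57BL/6 mice. GM-TNFa-DC are dendritic cells that grew out of GM-MPP with GM-CSF plus TNFa, GM-DC are dendritic cells that grew out of GM-MPP with GM-CSF alone, and GM-MPP are multipotent progenitors grown from bone marrow with stem cell cytokines plus GM-CSF. All 3 groups thus had GM-CSF, a growth factor of myeloid cells, and only GM-TNFa-DC had added TNFa, the protein that the family member Tnf encodes. Whether separate cultures or animals lay behind the 2 arrays of a group is not in the labels, so p-values measure the spread between these arrays, which may be technical. These are bulk cultures, in which fewer cells of a type and less RNA per cell cannot be told apart.

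Ligands of the TNF superfamily are mostly membrane proteins that assemble as trimers, and some are cut loose by proteases. They cluster receptors on the same or a neighbouring cell. Receptors without a death domain recruit TRAF adaptors and switch on NF-kB, while death domain receptors can also start cell death. In dendritic cells, several ligands deliver costimulation to T cells, and several receptors receive signals for maturation and survival.

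Values were log2 expression levels made by the authors with RMA, so a difference of 1 is a 2-fold change. They ran from 1.89 to 14.4 with array medians between 4.67 and 4.77. On arrays of this kind levels around or under the median are close to background, where changes come out smaller than they are. Of the members, 15 lay under 5 on all 6 arrays (39.5%, against 36.0% of all genes), and 15 had a mean over the 6 arrays of at least 6. Markers of dendritic cells, 12 genes measured, averaged 10.34 and 8.83 in GM-TNFa-DC and 9.80 and 8.56 in GM-DC, against 5.14 and 5.24 in GM-MPP, and in each kind of dendritic cell 8 of the 12 rose and 1 fell relative to GM-MPP. Neutrophil markers averaged 7.18 and 6.51 in GM-TNFa-DC and 8.46 and 6.80 in GM-DC, against 12.38 and 13.03 in GM-MPP, and of 9 measured 7 fell in GM-TNFa-DC and 5 in GM-DC. Stem and progenitor markers averaged 5.50 and 5.11 in GM-TNFa-DC and 5.66 and 5.15 in GM-DC, against 7.58 and 7.84 in GM-MPP, and of 9 measured 6 fell in GM-TNFa-DC and 5 in GM-DC. The part of these lists in the changes over GM-MPP was not tested. Markers of T and NK cells, which use many family members, averaged between 4.06 and 4.67 on all 6 arrays, and 7 of the 10 measured were under 5 on every array. For B cells the averages lay between 4.23 and 4.78, with 4 of 7 under 5 on every array. In each of these lists 1 gene fell relative to GM-MPP in each kind of dendritic cell, and none rose. The averages hide brighter genes. Nkg7, of the T and NK list, was at 3.93 and 4.14 in GM-TNFa-DC, against 8.01 and 8.395 in GM-MPP. Blnk, of the B cell list, was at 6.89 and 9.18 in GM-TNFa-DC, against 4.47 and 5.01 in GM-MPP. Within each group, control transcripts added before labelling were brighter on array number 1 in 24 of 24 probe sets, with GM-TNFa-DC at 2.60-fold, GM-DC at 2.16-fold and GM-MPP at 2.39-fold. The deviations of same-numbered arrays correlated at 0.806 over all genes between GM-TNFa-DC and GM-DC. Changes within each array number are therefore given beside the pooled ones.

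Promoters are shown for the 3 receptors whose RNA rose in GM-TNFa-DC or GM-DC relative to GM-MPP, Tnfrsf9, Tnfrsf1b and Fas, and for the ligand Ltb, whose arrays differed most between numbers among the members that were lower on array number 2. NF-kB, a factor through which TNF receptors act, binds kB sites, and capitals mark matches, on either strand, to a kB-type motif of 10 bases: GGGA, any 4 bases, then CC. Sequences are from RefSeq (GRCm38.p6), each from 250 bases before to 50 bases after an annotated transcription start, on the strand of the gene, 5′ to 3′. Tnfrsf9 has a pair of annotated starts, of which the downstream one is given first.
Tnfrsf9, downstream start, chr4:150927749-150928048, plus strand: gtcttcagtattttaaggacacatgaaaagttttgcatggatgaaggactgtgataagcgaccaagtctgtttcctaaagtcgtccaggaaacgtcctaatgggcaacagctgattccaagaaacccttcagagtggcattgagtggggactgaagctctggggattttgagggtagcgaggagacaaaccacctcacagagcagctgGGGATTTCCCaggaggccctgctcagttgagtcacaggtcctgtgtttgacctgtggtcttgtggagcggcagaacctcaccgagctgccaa
Tnfrsf9, upstream start, chr4:150919905-150920204, plus strand: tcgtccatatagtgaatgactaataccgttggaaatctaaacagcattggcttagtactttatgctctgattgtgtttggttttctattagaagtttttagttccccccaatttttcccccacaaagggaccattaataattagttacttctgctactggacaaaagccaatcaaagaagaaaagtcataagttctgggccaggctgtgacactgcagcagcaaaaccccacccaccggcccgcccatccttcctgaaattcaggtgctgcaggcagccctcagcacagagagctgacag
Tnfrsf1b, chr4:145246821-145247120, minus strand: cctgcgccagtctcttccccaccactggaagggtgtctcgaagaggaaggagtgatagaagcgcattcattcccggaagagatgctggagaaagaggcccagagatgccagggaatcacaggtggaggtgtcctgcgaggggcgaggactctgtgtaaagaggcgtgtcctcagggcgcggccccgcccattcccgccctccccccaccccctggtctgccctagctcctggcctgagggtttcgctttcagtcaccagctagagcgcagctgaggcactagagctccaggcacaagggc
Fas, chr19:34290409-34290708, plus strand: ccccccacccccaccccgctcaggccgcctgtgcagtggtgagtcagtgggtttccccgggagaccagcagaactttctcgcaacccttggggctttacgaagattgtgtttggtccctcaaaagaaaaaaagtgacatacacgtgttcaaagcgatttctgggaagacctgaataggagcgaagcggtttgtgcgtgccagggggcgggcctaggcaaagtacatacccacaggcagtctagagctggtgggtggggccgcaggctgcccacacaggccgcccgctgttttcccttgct
Ltb, chr17:35194257-35194556, plus strand: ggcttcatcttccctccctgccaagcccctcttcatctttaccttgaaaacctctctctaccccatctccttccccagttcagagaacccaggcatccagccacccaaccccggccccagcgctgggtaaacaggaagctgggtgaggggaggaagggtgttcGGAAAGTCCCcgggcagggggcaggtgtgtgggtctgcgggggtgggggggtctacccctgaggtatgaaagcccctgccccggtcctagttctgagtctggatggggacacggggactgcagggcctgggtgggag

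The downstream Tnfrsf9 window held GGGATTTCCC, which matches on both strands, starting at position -42 from the start of transcription. The Ltb window held GGAAAGTCCC, a match on the opposite strand, at position -87. The windows of Tnfrsf1b, Fas and the upstream Tnfrsf9 start held no match, which says only that these letters are not there. RefSeq windows were at hand for 30 members, with 34 starts in all, and 10 of the 34 held a match (29.4%, 95% exact Clopper-Pearson interval 15.1 to 47.5%). Over all genes 6810 of 32851 windows did (20.7%). The member genes were Tnfrsf8, Tnfrsf9, Tnfrsf25, Tnfrsf14, Tnfrsf13b, Tnfsf11, Ltb, Tnf, Tnfsf14 and Eda2r, of which Tnfrsf9 alone was among the called genes below. A match is a description of the letters and not a binding site. The interval above treats the member windows as independent, though some genes have several starts and the Tnfsf13b windows overlap.

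GM-DC were set against GM-MPP to ask which family members differ between dendritic cells and the progenitors they grow from. Both of the members that rose were receptors, Tnfrsf9 and Tnfrsf1b, or 2 of 38 (5.26%), where 1.87% of all genes were called higher (limma, Benjamini-Hochberg adjusted p under 0.05 over 18193 genes). No member was called lower, against 2.63% of all genes, and at an unadjusted p under 0.05 there were 6 members higher and 1 lower (9.06% and 12.5% of all genes). At least 2-fold higher on both array numbers were 4 members, Tnfrsf9, Tnfrsf1b, Fas and Tnfsf4 (10.5%, against 3.65% of all genes). None was 2-fold lower on both, against 4.07% of all genes. Counting only whether arrays overlap, 13 members had both GM-DC arrays above both GM-MPP arrays (34.2%, against 28.3% of all genes) and 8 had both below (21.1%, against 27.0%). The median log2 change of the 38 members was 0.16, beside 0.02 for all genes.

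**Figure D1:**
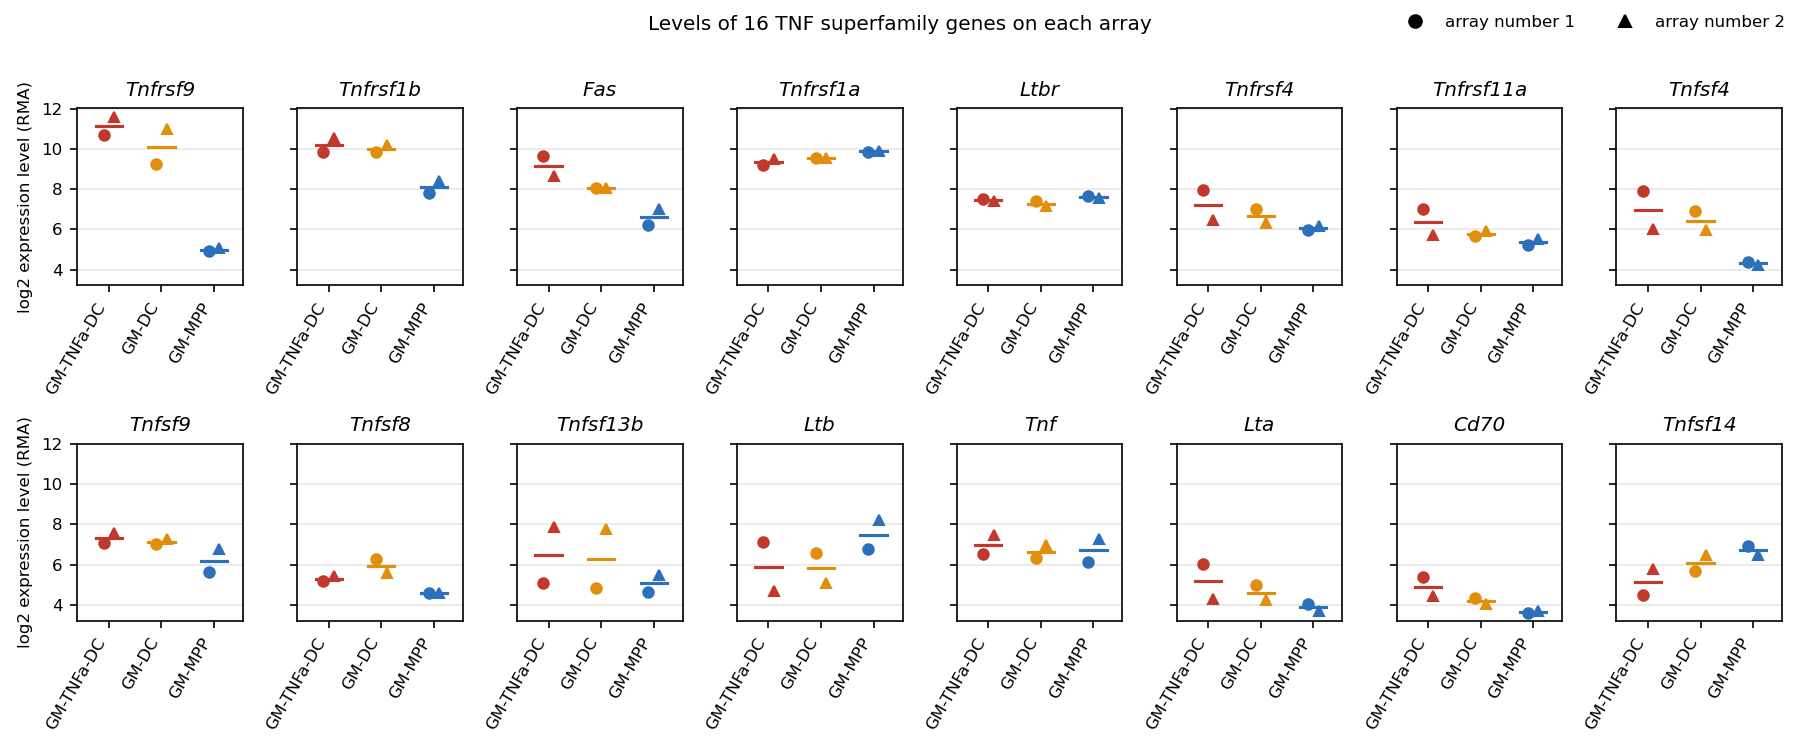
Log2 expression levels (vertical axis) of 16 family members on each of the 6 arrays, in GM-TNFa-DC, GM-DC and GM-MPP from left to right. Circles are array number 1, triangles array number 2 and bars the means of the 2 arrays. Tnfrsf9 was at 9.23 or higher on all 4 dendritic cell arrays and at 5.09 or lower in GM-MPP, while Tnfsf13b and Ltb differed more between array numbers than between the dendritic cell groups.

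Tnfrsf9 encodes CD137, a costimulatory receptor best known from activated T cells that dendritic cells can also carry. Its level was 9.23 and 11.00 in GM-DC arrays 1 and 2, against 4.91 and 5.09 in GM-MPP. The progenitor level was close to the median of its arrays, and every dendritic cell array lay far above it. The log2 change was 5.11 ± 0.63 (moderated SE, n = 2 each, limma adjusted p = 0.0193), or 34.6-fold, with 4.32 on array number 1 and 5.91 on number 2. Without GM-MPP 1 or GM-MPP 2 the call was lost (adjusted p = 0.148 and 0.127), with changes of 5.02 and 5.20, while it held without GM-DC 1 (6.00, adjusted p = 0.0245) and without GM-DC 2 (4.23, adjusted p = 0.0442).

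TNF has a pair of receptors in the family, of which Tnfrsf1b passed and Tnfrsf1a did not. Tnfrsf1b encodes TNF receptor 2, which has no death domain and responds best to membrane-bound TNF. Its level was 9.85 and 10.17 in GM-DC, against 7.82 and 8.42 in GM-MPP, and the groups did not overlap. It rose by 1.89 ± 0.34 on the log2 scale (SE, n = 2 each, limma adjusted p = 0.0428), or 3.71-fold, with 2.03 and 1.75 within array numbers 1 and 2. This call was lost without GM-MPP 1, GM-MPP 2, GM-DC 1 or GM-DC 2 (adjusted p = 0.248, 0.138, 0.141 and 0.157), with its probe sets averaged (0.100) and when the array number was a block among only these 4 arrays (0.0584). Tnfrsf1a encodes TNF receptor 1, the death domain receptor through which soluble TNF mainly acts. It stood at 9.55 and 9.57 in GM-DC, against 9.85 and 9.91 in GM-MPP, a difference of -0.32 ± 0.20 that did not pass (limma adjusted p = 0.422). Whether the changes of these receptors differ from each other was not tested.

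Fas, the death receptor for Fas ligand, was at 8.04 and 8.05 in GM-DC, against 6.21 and 7.03 in GM-MPP. Both GM-DC arrays lay above both GM-MPP arrays, by 1.83 on array number 1 and 1.02 on number 2, but the pooled change of 1.42 ± 0.42 did not pass (limma adjusted p = 0.131). Fasl, the ligand, was at 3.02 and 2.74 in GM-TNFa-DC and 3.005 and 2.90 in GM-DC, against 2.80 and 2.96 in GM-MPP, near the bottom of the scale. Ltbr, the receptor for lymphotoxin and for Tnfsf14, stood at 7.39 and 7.14 in GM-DC, against 7.67 and 7.56 in GM-MPP. Tnfrsf11a, which encodes RANK, a receptor known for osteoclast formation and dendritic cell survival, was at 5.69 and 5.91 in GM-DC, against 5.24 and 5.54 in GM-MPP. Neither Ltbr nor Tnfrsf11a passed (limma adjusted p = 0.395 and 0.634). Tnfrsf4, or OX40, was at 7.04 and 6.33 in GM-DC, against 6.00 and 6.18 in GM-MPP, and did not pass either (adjusted p = 0.563). Cd27, a receptor of lymphocytes and early progenitors, was dim throughout, with 3.15 and 3.33 in GM-DC, against 3.35 and 4.20 in GM-MPP. In GM-TNFa-DC it was at 3.14 and 2.96.

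Among the 13 ligands 0 were called in this comparison, and 6 were higher on both array numbers (46.15%, against 35.51% of all genes) and 2 lower on both (against 5934 of all 18193 genes). Tnfsf4, the OX40 ligand, through which dendritic cells costimulate T cells, was at 6.90 and 5.97 in GM-DC, against 4.40 and 4.26 in GM-MPP. Both GM-DC arrays stood well clear of the progenitors, whose values were under the array medians. Its change was 2.11 ± 0.64 (SE, n = 2 each) and did not pass (limma adjusted p = 0.139). The fit on only these 4 arrays did call it (adjusted p = 0.0457, or 0.0632 once the array number was a block), as did leaving out GM-TNFa-DC 1 or GM-TNFa-DC 2 (adjusted p = 0.0461 and 0.0481). Tnfsf8, the CD30 ligand, was at 6.30 and 5.58 in GM-DC, against 4.59 and 4.58 in GM-MPP, and missed the threshold with a change of 1.35 ± 0.27 (adjusted p = 0.0562). Its receptor Tnfrsf8 stayed between 4.46 and 4.66 on all 6 arrays. Tnfsf9, the ligand of the receptor that Tnfrsf9 encodes, was at 7.04 and 7.26 in GM-DC, against 5.62 and 6.80 in GM-MPP (adjusted p = 0.278), so the groups did not overlap but a GM-MPP array came close to them.

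Tnf itself, whose protein was added to the GM-TNFa-DC cultures, was at 6.32 and 6.96 in GM-DC, against 6.16 and 7.26 in GM-MPP. The groups overlapped, with array number 2 above number 1 in both. Lta, which forms lymphotoxin, was at 4.98 and 4.24 in GM-DC, against 4.06 and 3.71 in GM-MPP. Cd70, the ligand of Cd27, was at 4.36 and 4.07 in GM-DC, against 3.63 and 3.72 in GM-MPP. Both were dim, and neither passed (limma adjusted p = 0.540 and 0.381). Tnfsf10, which encodes the death ligand TRAIL, was at 4.05 and 3.89 in GM-TNFa-DC and 3.77 and 3.94 in GM-DC, against 3.92 and 3.94 in GM-MPP. Tnfsf11, which encodes RANK ligand, was at 3.87 and 3.76 in GM-TNFa-DC and 4.08 and 3.46 in GM-DC, against 3.89 and 3.70 in GM-MPP. Both were dim on every array.

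**Figure D2:**
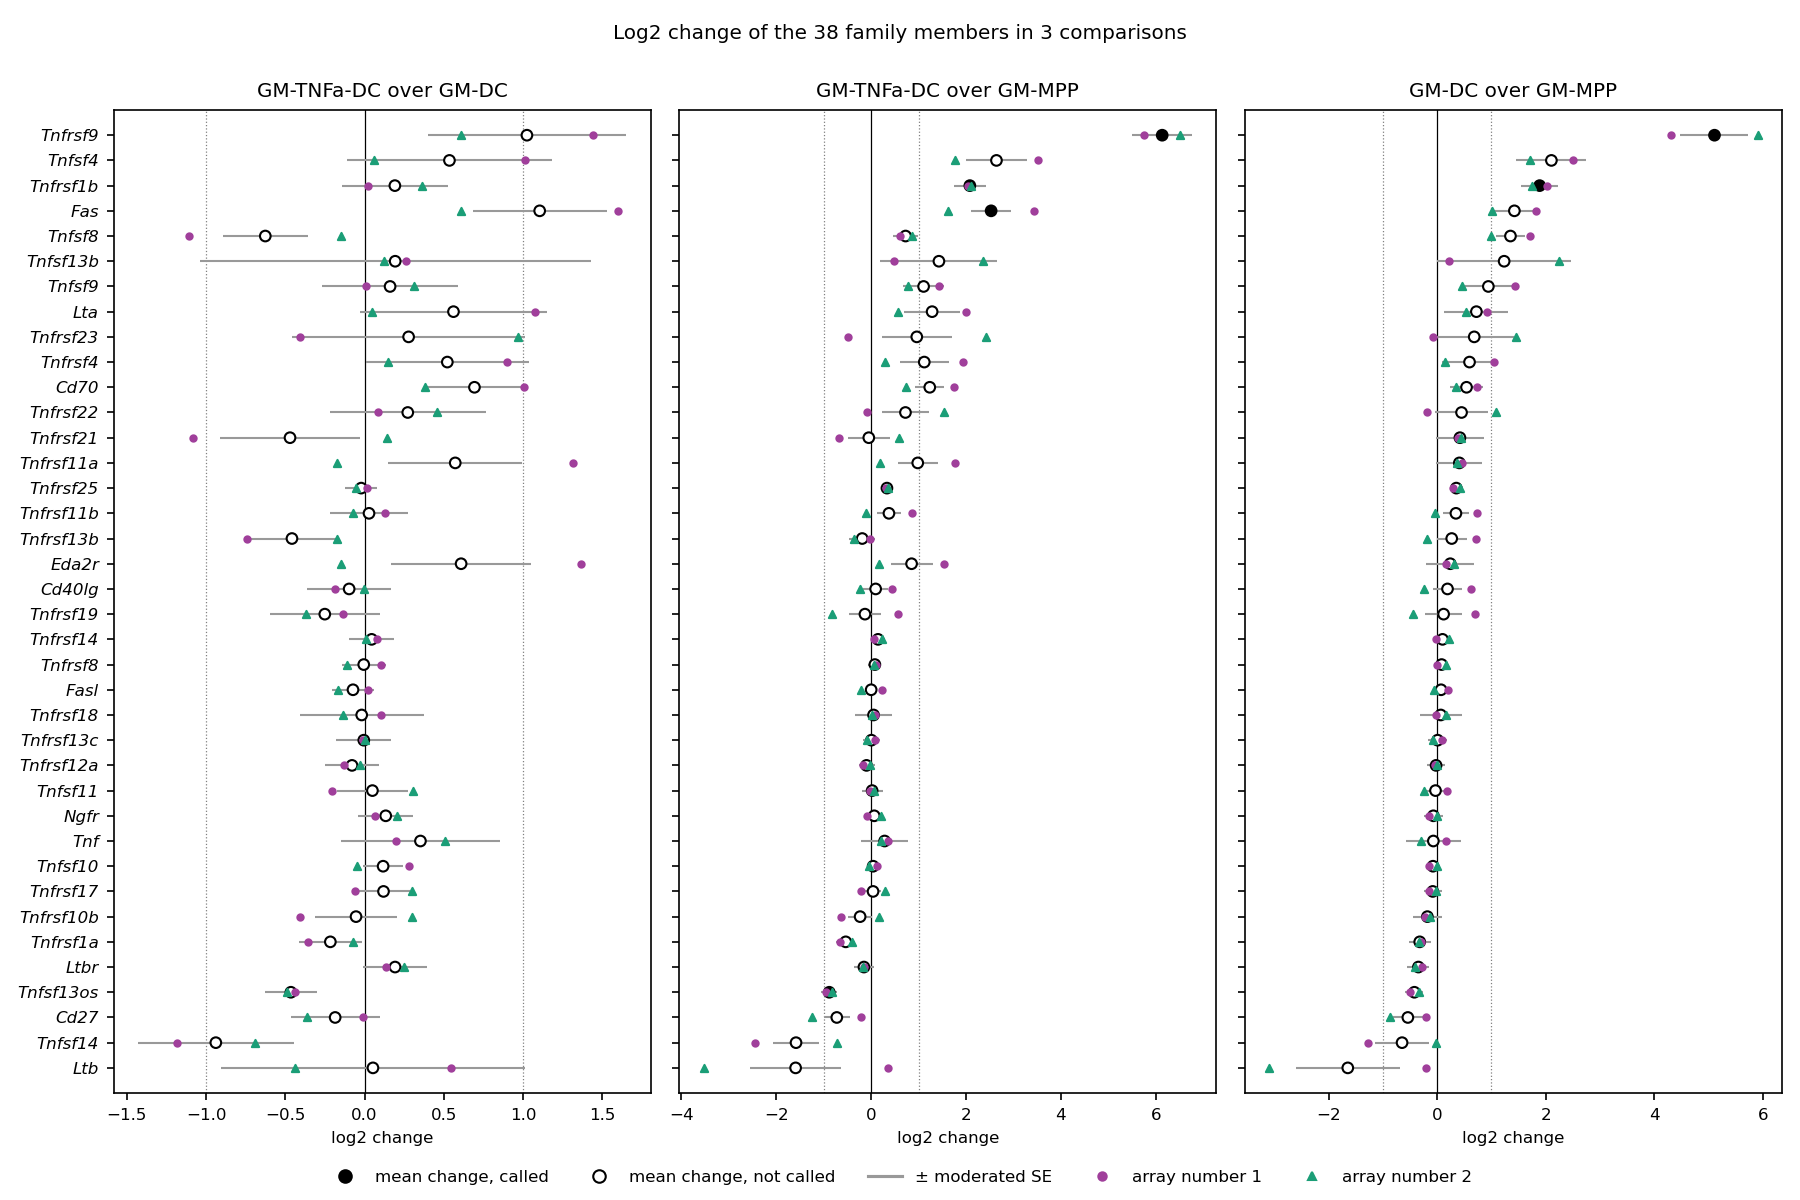
Log2 change (horizontal axis) of each of the 38 members in 3 comparisons, ordered by the change in GM-DC over GM-MPP. Large circles are pooled changes, filled where called, with bars of ± 1 moderated SE, and small symbols are the changes within array numbers 1 and 2. Horizontal scales differ between panels, and dotted lines mark a 2-fold change. No member was called in GM-TNFa-DC over GM-DC, where array number 1 gave the larger change for Fas, Tnfrsf9 and Tnfsf4.

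GM-TNFa-DC and GM-DC differ by the TNFa in the culture, so that setting one against the other asks how the family responded to one of its own ligands. No member and no gene passed (limma, lowest adjusted p = 1), so the background was 0% in either direction. At an unadjusted p under 0.05, 1 member was higher, Fas, and 1 lower, Tnfsf13os, against 1.48% and 0.77% of all genes. With the array number as a block on only these 4 arrays, the counts at an unadjusted p under 0.05 were 3 higher (Fas, Tnfrsf9 and Cd70) and 2 lower (Tnfsf14 and Tnfsf13os), against 4.13% and 3.97% of all genes, and the lowest adjusted p among members was 0.560. None of the 38 reached 2-fold in a shared direction on array numbers 1 and 2, against 0.0715% of all genes higher and 0.0495% lower. The median change was 0.05, beside 0.01 for all genes.

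Fas was at 9.64 and 8.65 in GM-TNFa-DC, against 8.04 and 8.05 in GM-DC. Both arrays with TNFa lay above both without it, and the gap was 1.60 on array number 1 and 0.61 on number 2 (change 1.10 ± 0.42, limma adjusted p = 1). Tnfrsf9 was at 10.67 and 11.61 in GM-TNFa-DC, against 9.23 and 11.00 in GM-DC. It was higher with TNFa within each array number, by 1.44 and 0.61, but GM-DC 2 was brighter than GM-TNFa-DC 1. Tnfrsf1b, at 9.87 and 10.53 in GM-TNFa-DC, against 9.85 and 10.17 in GM-DC, differed by 0.19 ± 0.34. Tnfrsf1a, at 9.19 and 9.49 in GM-TNFa-DC, against 9.55 and 9.57 in GM-DC, differed by -0.22 ± 0.20. Neither TNF receptor passed.

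Cd70 was at 5.37 and 4.45 in GM-TNFa-DC, against 4.36 and 4.07 in GM-DC, and was among the 3 members, with Fas and Ltbr, whose GM-TNFa-DC arrays all lay above the GM-DC arrays (7.89%, against 14.9% of all genes). Ltbr had 7.53 and 7.39 in GM-TNFa-DC, against 7.39 and 7.14 in GM-DC, a difference of 0.19 ± 0.20. Tnf RNA was at 6.52 and 7.46 in GM-TNFa-DC, against 6.32 and 6.96 in GM-DC, and did not pass. Tnfsf9 was at 7.05 and 7.57 in GM-TNFa-DC, against 7.04 and 7.26 in GM-DC, and the groups overlapped.

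For several members the difference with TNFa stood on array number 1 and was small or opposite on number 2. Tnfrsf11a was at 7.00 and 5.74 in GM-TNFa-DC, against 5.69 and 5.91 in GM-DC. Eda2r, a receptor for an ectodysplasin isoform, was at 4.82 and 3.38 in GM-TNFa-DC, against 3.45 and 3.53 in GM-DC. Tnfsf4 was at 7.91 and 6.03 in GM-TNFa-DC, against 6.90 and 5.97 in GM-DC. In each of these, GM-TNFa-DC 1 was the highest of the 6 arrays and GM-TNFa-DC 2 was close to GM-DC 2. Lta was at 6.05 and 4.29 in GM-TNFa-DC, against 4.98 and 4.24 in GM-DC, and Tnfrsf4 at 7.94 and 6.48 in GM-TNFa-DC, against 7.04 and 6.33 in GM-DC. Markers of dendritic cells also averaged highest on GM-TNFa-DC 1, and their part in these differences was not tested.

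The ligands Tnfsf14 and Tnfsf8 stood on the low side. Tnfsf14, also called LIGHT, binds Ltbr and Tnfrsf14. It was at 4.50 and 5.77 in GM-TNFa-DC, against 5.69 and 6.46 in GM-DC and 6.95 and 6.48 in GM-MPP. Within array numbers it was lower with TNFa by a log2 change of -1.18 and -0.69, and the pooled change was -0.94 ± 0.49. Tnfsf8 was at 5.19 and 5.43 in GM-TNFa-DC, against 6.30 and 5.58 in GM-DC, and its arrays did not overlap between the groups. It was 1 of 8 members whose GM-TNFa-DC arrays all lay below the GM-DC arrays (21.1%, against 10.6% of all genes). The other 7 were Cd27, Cd40lg, Tnfrsf12a, Tnfrsf13b, Tnfrsf19, Tnfrsf1a and Tnfsf13os, with changes no larger in size than those of Tnfsf13os (-0.47 ± 0.16) and Tnfrsf13b (-0.46 ± 0.28). Of these, Cd27, Cd40lg and Tnfrsf19 lay under 5 on every array, close to background. Some differences were nearly nil, with -0.0071 for Cd27 on array number 1 and -0.0064 for Cd40lg on number 2.

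Set against GM-MPP, GM-TNFa-DC had 3 members higher, Tnfrsf9, Tnfrsf1b and Fas (7.89%, against 2.77% of all genes), and 1 lower, Tnfsf13os (2.63%, against 4.26%). At least 2-fold higher on both numbers were the same 4 members as in GM-DC over GM-MPP, Tnfrsf9, Tnfrsf1b, Fas and Tnfsf4 (10.5%, against 3.8% of all genes), and 0 were 2-fold lower (against 5.32%). Both GM-TNFa-DC arrays lay above both GM-MPP arrays for 13 members (34.2%, against 31.6%) and below them for 7 (18.4%, against 26.1%). This comparison shares the GM-MPP arrays with the first, so the values stand side by side and are not independent. Tnfrsf9 was 6.14 ± 0.63 higher on the log2 scale (limma adjusted p = 0.0101), or 70.3-fold, with 5.76 and 6.51 within array numbers. That call was lost without GM-MPP 1 or GM-MPP 2 (adjusted p = 0.0968 and 0.0849). Tnfrsf1b was higher by 2.08 ± 0.34 (adjusted p = 0.0280), a call lost without each of the 6 arrays in turn (adjusted p between 0.0519 and 0.178), with the fit on only the 4 arrays compared, with and without the block (0.0609 and 0.0523), and with the mean of its probe sets (0.0582).

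Fas, with 9.64 and 8.65 in GM-TNFa-DC, against 6.21 and 7.03 in GM-MPP, rose by 2.53 ± 0.42 (limma adjusted p = 0.0305), or 5.77-fold, and by 3.43 and 1.63 within array numbers. Its call was kept without GM-TNFa-DC 2 (adjusted p = 0.0363). It was lost without GM-MPP 1, GM-MPP 2, GM-DC 1, GM-DC 2 or GM-TNFa-DC 1 (adjusted p = 0.188, 0.105, 0.0578, 0.0576 and 0.0898), and with only the 4 arrays compared, with and without the block (0.113 and 0.0576). Tnfsf4, with 7.91 and 6.03 in GM-TNFa-DC, against 4.40 and 4.26 in GM-MPP, had a change of 2.64 ± 0.64 (adjusted p = 0.0728), and passed with the array number as a block on all 6 arrays (adjusted p = 0.0273) and without GM-TNFa-DC 2 (0.0301). It did not pass with only the 4 arrays compared, with and without the block (0.0957 and 0.0920).

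Tnfsf13os was at 5.02 and 5.15 in GM-TNFa-DC and 5.46 and 5.64 in GM-DC, against 5.96 and 5.97 in GM-MPP, so that no array of one group overlapped another group. It was lower in GM-TNFa-DC than in GM-MPP by a log2 change of -0.88 ± 0.16 (limma adjusted p = 0.0395). The call was lost without each of the 6 arrays in turn (adjusted p between 0.0696 and 0.205), over all probe sets (0.0561), with only the 4 arrays compared, with and without the block (0.123 and 0.0701), and with the mean of its 2 probe sets (-0.36, adjusted p = 0.176). The second probe set lay between 3.64 and 4.04, near background.

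For some members the 2 arrays of a dendritic cell group differed more than the dendritic cell groups did. Tnfsf13b encodes BAFF, a survival factor for B cells that myeloid cells release. It was at 5.11 and 7.88 in GM-TNFa-DC and at 4.85 and 7.76 in GM-DC, against 4.62 and 5.52 in GM-MPP. Array number 2 was higher than number 1 by 2.77 on the log2 scale in GM-TNFa-DC and by 2.91 in GM-DC. Ltb, the membrane anchor of the lymphotoxin trimer, went the other way: it was at 7.10 and 4.67 in GM-TNFa-DC and at 6.56 and 5.11 in GM-DC, against 6.76 and 8.20 in GM-MPP. Its change in GM-DC over GM-MPP was -0.20 on array number 1 and -3.09 on number 2, and the pooled -1.65 ± 0.96 did not pass (limma adjusted p = 0.391).

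Tnfsf13b was the 1 member at least 2-fold higher on array number 2 in both dendritic cell groups (2.63%, against 3.2% of all genes), and Ltb the 1 member at least 2-fold lower (2.63%, against 2.06%). Averages of marker lists moved with the number too. Dendritic cell markers averaged 10.34 on number 1 and 8.83 on number 2 of GM-TNFa-DC, and 9.80 and 8.56 in GM-DC. Macrophage markers averaged 8.28 and 8.86 in GM-TNFa-DC and 8.53 and 9.13 in GM-DC, but single genes went both ways. Fcgr1 was at 6.65 and 9.38 in GM-TNFa-DC and 8.11 and 9.89 in GM-DC. Mertk was at 9.31 and 8.28 in GM-TNFa-DC and 9.57 and 8.70 in GM-DC, and Marco was also lower on number 2 in both groups. These genes were picked after their values were seen. The average of neutrophil markers was lower on number 2 in both groups, as given above. Prtn3 went the other way, at 5.02 and 5.86 in GM-TNFa-DC and 5.82 and 6.66 in GM-DC. In GM-TNFa-DC, Elane and S100a8 were higher on number 2 as well. Erythroid and megakaryocyte markers averaged 5.41 and 6.00 in GM-TNFa-DC and 5.09 and 6.05 in GM-DC, mostly through 1 of them, Pf4. Pf4, named after its values were seen, was at 8.88 and 12.81 in GM-TNFa-DC and 6.23 and 12.79 in GM-DC. The other measured genes of that list differed far less between numbers, and in both directions. In GM-DC, for example, Klf1 was at 4.47 and 5.105, Itga2b at 6.36 and 6.09 and Gp9 at 5.85 and 5.835. The part of these lists in the differences of Tnfsf13b and Ltb was not tested.

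**Figure D3:**
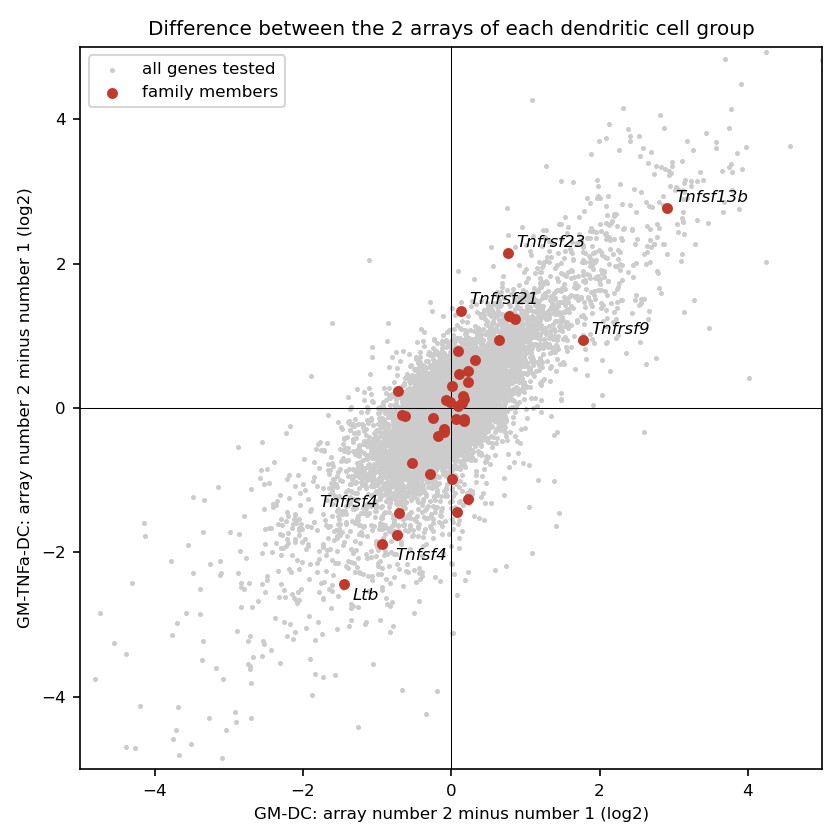
Level on array number 2 minus level on array number 1 (log2) in GM-DC (horizontal axis) and in GM-TNFa-DC (vertical axis). Red points are the 38 members and grey points all genes tested, of which 23 lie outside the axes. Tnfsf13b lies far to the upper right and Ltb to the lower left, while most members lie near the centre.

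Where a member had several probe sets, they did not always go together. For Tnfrsf9, a second probe set gave 8.97 and 10.37 in GM-TNFa-DC and 7.43 and 9.57 in GM-DC, against 3.77 and 3.26 in GM-MPP, the same pattern as the one used. The dimmest lay between 2.92 and 3.18 on all 6 arrays. For Tnfrsf1b, the second probe set gave 7.44 and 8.56 in GM-TNFa-DC and 7.45 and 7.93 in GM-DC, against 6.51 and 6.83 in GM-MPP, a smaller difference in the same direction. The dimmer probe set of Tnfrsf11a, with 5.90 and 4.33 in GM-TNFa-DC, also stood out on GM-TNFa-DC 1, and both probe sets of Tnfsf14 were lowest on that array.

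**Figure D4:**
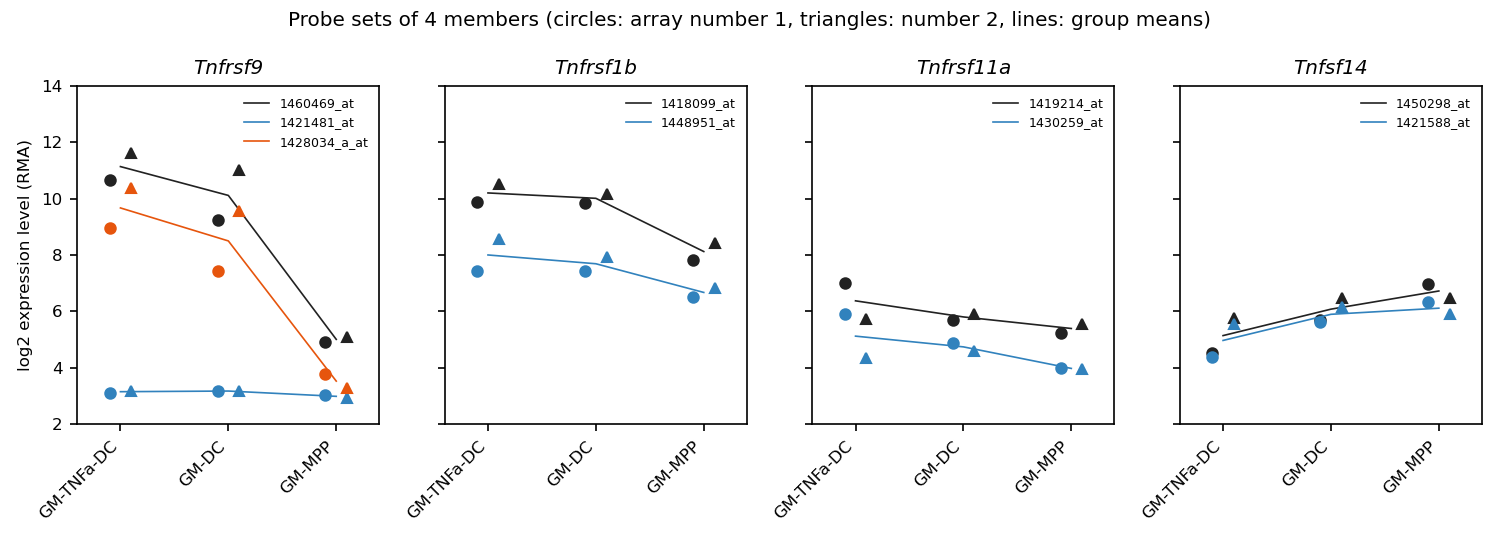
Log2 expression levels (vertical axis) of every single-gene probe set of Tnfrsf9, Tnfrsf1b, Tnfrsf11a and Tnfsf14 in GM-TNFa-DC, GM-DC and GM-MPP. Circles are array number 1, triangles number 2, and lines join group means. Of the 3 Tnfrsf9 probe sets, 2 are far higher in both dendritic cell groups and 1 stays near 3.

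The decoy receptors Tnfrsf22 and Tnfrsf23, mouse receptors for TRAIL that lie side by side in the genome, were both highest on GM-TNFa-DC 2. Tnfrsf22 was at 5.97 and 7.20 in GM-TNFa-DC and 5.88 and 6.74 in GM-DC, against 6.06 and 5.66 in GM-MPP. Tnfrsf23 was at 5.62 and 7.76 in GM-TNFa-DC and 6.03 and 6.79 in GM-DC, against 6.11 and 5.34 in GM-MPP. The sequences of these genes are alike and 1 probe set is annotated to both, so their signals may be mixed. Of the 3 Tnfrsf22 probe sets, 1 gave 4.99 and 4.67 in GM-TNFa-DC and 4.74 and 4.49 in GM-DC, against 5.95 and 4.93 in GM-MPP, a direction opposite to that of the other two.

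Of the remaining receptors, Tnfrsf21, which encodes the death domain receptor DR6, was at 7.85 and 9.20 in GM-TNFa-DC and 8.93 and 9.06 in GM-DC, against 8.53 and 8.61 in GM-MPP, so that GM-TNFa-DC 1 was the lowest array. Tnfrsf13b, which encodes TACI, a receptor for BAFF and APRIL, lay between 8.94 and 9.78 on all 6 arrays. Tnfrsf18, which encodes the costimulatory receptor GITR, lay between 7.12 and 7.90, and Tnfrsf12a, the receptor for TWEAK, between 6.18 and 6.35. None of these passed in any comparison. In all, the 19 members that were not called, not 2-fold apart on both numbers and not in a fixed panel had log2 changes between -0.65 (Tnfsf14) and 1.35 (Tnfsf8) in GM-DC over GM-MPP, between -0.94 (Tnfsf14) and 0.61 (Eda2r) in GM-TNFa-DC over GM-DC, and between -1.58 (Tnfsf14) and 0.96 (Tnfrsf23) in GM-TNFa-DC over GM-MPP, with a lowest adjusted p of 0.0562.

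Genes that work with these receptors were counted from a list of 33, of which 28 had a probe set of their own. The 28 also hold Cd40, Relt and Edar, receptors of the superfamily whose symbols the rule does not take in. List and family are thus not fully distinct in kind. Relative to GM-MPP, 5 of the 28 rose in GM-TNFa-DC and 1 of the 28 in GM-DC, against 2.77% and 1.87% of all genes. None fell, against 4.26% and 2.63% of all genes. Nfkbie, an inhibitor of NF-kB, rose in both, to 10.7-fold its GM-MPP level in GM-TNFa-DC and 4.78-fold in GM-DC (limma adjusted p = 0.0146 and 0.0443). The others in GM-TNFa-DC were Tnfaip3, which encodes the NF-kB brake A20 (1.64 ± 0.32, adjusted p = 0.0421), its partner Tnip1 (1.59 ± 0.28, adjusted p = 0.0364), Cflar, an inhibitor of caspase-8 (1.46 ± 0.23, adjusted p = 0.0264), and Adam17, the protease that releases TNF from the membrane (1.43 ± 0.21, adjusted p = 0.0244). In GM-TNFa-DC over GM-MPP the 5 became 0 without GM-MPP 1, GM-MPP 2 or GM-TNFa-DC 1, and 2 (Adam17 and Nfkbie) without GM-DC 1 or GM-DC 2. Without GM-TNFa-DC 2 there were 5, of which only Nfkbie was among the first 5. The count of 5 also became 0 when the array number was a block among the 4 arrays compared, and 2 on those arrays without the block. The Nfkbie call in GM-DC over GM-MPP was lost without each of the 6 arrays in turn, with only the 4 arrays compared, with and without the block, over all probe sets and with probe sets averaged. For GM-TNFa-DC over GM-DC 0 passed, but 24 of the 28 were higher on both array numbers, where 30.93% of all genes and 14 of the 38 family members (36.84%) were. Their median log2 change there was 0.51, with 0.76 on array number 1 and 0.30 on number 2, beside 0.01 for all genes and 0.05 for the family. The list was chosen with earlier results of these data known, so its count and median are not independent of them. Cd40 and Edar were among the 24. The sets were also not matched for brightness. Of the 28, 27 had a mean over the 6 arrays of at least 6, against 39.5% of members and 46.9% of all genes. Without dim genes the family median was 0.19. Tnfaip3 was at 10.41 and 10.36 in GM-TNFa-DC, against 9.12 and 9.20 in GM-DC, and Nfkbie at 10.42 and 9.78 in GM-TNFa-DC, against 9.36 and 8.53 in GM-DC. For both, the GM-TNFa-DC arrays lay above the GM-DC arrays, as they did for 14.9% of all genes. Both genes were named because they were called over GM-MPP on the same GM-TNFa-DC arrays. That choice favours such a gap, so nothing is concluded from it. Cd40, a TNF receptor superfamily member under its own name, was at 8.98 and 6.24 in GM-TNFa-DC and 6.62 and 5.80 in GM-DC, against 5.22 and 5.34 in GM-MPP, and did not pass (adjusted p = 0.175 in GM-TNFa-DC over GM-MPP).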

How the data were processed

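The deposited table holds log2 expression values for 45101 probe sets on 6 arrays. Per the submitters' processing notes the authors made them with RMA, and per the labels in Bioconductor, from 1 microgram of RNA labelled with a one-cycle kit. The log2 scale was inferred from the range of the deposited values, and the version is not given in the sources used here. Probe sets were named through the platform annotation and RefSeq (GRCm38.p6) by Entrez identifier: 34945 had 1 gene symbol, 34741 of them in RefSeq. Each of 18193 genes was read from its brightest probe set.

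The tests used limma 3.58.1, run under R 4.3.3 (intensity trend, 3 groups sharing 1 spread with 3 residual degrees of freedom) and Benjamini-Hochberg adjustment over all genes, at 0.05. The fit was tested on simulated arrays with independent noise. They lacked the deviations that same-numbered dendritic cell arrays share here, so the test does not cover that feature of the data. Python 3.11.15 and matplotlib 3.10.9 made tables and plots. The number of arrays limits the precision.

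The members and lists were chosen with earlier results of these data known. Values on every array were given for members that were called, reached 2-fold in a shared direction on array numbers 1 and 2, or stood in a panel of 18, and for some others as examples. Members outside that rule that are given with their array values (Tnfsf8, Tnfsf14, Eda2r, Tnfrsf21, Tnfrsf22 and Tnfrsf23) were chosen after their values were seen. Alternatives were other normalizations, dim genes left out (mean under 6), other probe set rules, other priors, only 4 arrays, the array number as a block, and each array left out.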

Additional observations from a re-analysis of the deposited data

How the results depend on the processing

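Leaving out 1 array at a time gave 0 to 3 members and 20 to 346 genes higher, and 0 members and 30 to 371 genes lower, in GM-DC over GM-MPP, 0 members and 0 genes in either direction in GM-TNFa-DC over GM-DC, and 0 to 5 members and 37 to 303 genes higher, and 0 members and 51 to 457 genes lower, in GM-TNFa-DC over GM-MPP. A group left with 1 array borrowed its spread from the others. With the array number as a replicate block on all 6 arrays, GM-DC over GM-MPP had 627 higher and 849 lower genes, and GM-TNFa-DC over GM-MPP 850 and 1210. With the replicate block on only the 4 arrays compared there were 151 and 125 in GM-DC over GM-MPP, with 1 member higher, and 144 and 116 in GM-TNFa-DC over GM-MPP, with 1 member higher and 0 lower. Without the block, the 4 arrays of GM-TNFa-DC over GM-MPP gave 303 and 446 genes, with 1 member higher and 0 lower. The labels do not say what the array number marks. Deviations of same-numbered arrays correlated at 0.806 between GM-TNFa-DC and GM-DC, at 0.105 between GM-DC and GM-MPP and at 0.0719 between GM-TNFa-DC and GM-MPP.

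With probe sets of a gene averaged, 1 member was higher in GM-DC over GM-MPP. The 1 member lower in GM-TNFa-DC over GM-MPP, Tnfsf13os, became 0 with that mean, without dim genes (where it was not tested) and over all probe sets. The median change of the 38 members in GM-DC over GM-MPP was 0.42 without dim genes, 0.0798 within array number 2, and 0.14 to 0.28 with 1 array left out. In GM-TNFa-DC over GM-DC it was 0.19 without dim genes, 0.0052 within number 2, and -0.0665 to 0.0701 with 1 array left out. In GM-TNFa-DC over GM-MPP it was 0.0727 after a second quantile normalization, 0.0149 after median centring, 0.28 without dim genes, 0.12 with the mean of probe sets, 0.18 within each of numbers 1 and 2, and 0.0866 to 0.2452 with 1 array left out. The median in GM-TNFa-DC over GM-DC thus changed sign with the array left out. The medians over GM-MPP stayed positive in these settings, though as small as 0.0798 for GM-DC and 0.0149 for GM-TNFa-DC. In the main fit the medians of all genes were positive too, at 0.023 for GM-DC and 0.0523 for GM-TNFa-DC. The family had 0.0866 in that fit of GM-TNFa-DC over GM-MPP. No medians of all genes are given here for the other settings. Whether the family has a direction was not tested. Of 28 pathway genes (alternatives chosen after seeing the data), 9 were higher in GM-TNFa-DC over GM-MPP with the replicate block on 6 arrays, and 0 with it on 4. With the looser motif of GGG, any 5 bases, then CC, 67.6% of member promoters held a match, against 50.8% of all. The cause of these shifts was not tested.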

Other observations

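Several members lie next to each other in the genome, by the gene order of GRCm38.p6. On chromosome 17, Ltb, Tnf and Lta stand side by side with no other protein-coding gene between them. On the number-2 dendritic cell arrays Ltb was at 4.67 in GM-TNFa-DC and 5.11 in GM-DC, against 8.20 in GM-MPP, while Tnf was at 7.46 in GM-TNFa-DC and 6.96 in GM-DC, against 7.26 in GM-MPP. On number 1 this contrast was absent: Ltb was at 7.10 in GM-TNFa-DC and 6.56 in GM-DC, against 6.76 in GM-MPP. Lta was dim except on GM-TNFa-DC 1, with 6.05. Also on chromosome 17, Tnfsf9, Cd70 and Tnfsf14 are neighbours. On array number 1 the changes in GM-TNFa-DC over GM-MPP were 1.44 for Tnfsf9, 1.74 for Cd70 and -2.45 for Tnfsf14, and on number 2 they were 0.77, 0.73 and -0.715.

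On chromosome 4, Tnfrsf1b, which rose in both kinds of dendritic cell, adjoins Tnfrsf8, which stayed between 4.46 and 4.66 on all 6 arrays. On chromosome 1, Tnfsf4 and Fasl have 1 protein-coding gene between them. Tnfsf4 was at 7.91 and 6.03 in GM-TNFa-DC and 6.90 and 5.97 in GM-DC, against 4.40 and 4.26 in GM-MPP, while Fasl lay between 2.74 and 3.02 throughout. On chromosome 6, Ltbr and Tnfrsf1a, with 1 gene between them, had changes of similar size in GM-DC over GM-MPP (-0.34 ± 0.20 and -0.32 ± 0.20), which did not pass (limma adjusted p = 0.395 and 0.422). These are descriptions of a few loci, with no test.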
